A study of Mus musculus with 8 samples.

Results

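The amino acid and peptide transporters described here are 38 solute carrier (Slc) genes, read out in mouse whole kidney by RNA-seq. They were chosen by symbol, through the Ensembl identifiers of the deposited count rows, and not by any measured value. All 38 had a row among 37583 gene rows, and all 38 passed the filter on low counts that left 15228 genes for testing. The kidneys came from mice with an inducible deletion of TFAP2B, an AP-2 transcription factor, and from their control littermates. The 4 libraries labelled knockout carry 2 floxed TFAP2B alleles and a beta-actin CreERT2 transgene, so that the recombinase is not limited to one kidney cell type. The 4 libraries labelled wildtype are littermates whose floxed and Cre alleles the labels do not give. The labels also leave out the inducing agent, the time after induction, the age of the animals and whether each library is 1 animal, so the p-values measure the spread between these libraries.

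The kidney filters free amino acids and small peptides and takes nearly all of them back in the proximal tubule. Carriers of the brush border bring them into the cell, and carriers of the basolateral membrane pass them on to the blood. Several of these carriers are light chains that reach the membrane only with a heavy chain, Slc3a1 (rBAT) at the brush border and Slc3a2 (the heavy chain of the antigen CD98) at the basolateral side. Other members serve the cells themselves: they take up glutamine and alanine, import osmolytes such as betaine and taurine in the medulla, or sit in the lysosomal membrane.

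Library totals over genes ran from 13435113 to 17930347 counts. Whole-gene counts of the targeted gene, Tfap2b (ENSMUSG00000025927), were higher in every library labelled knockout (237 to 266 CPM, the gene's scaled share of the counts of a library) than in those labelled wildtype (94.3 to 111 CPM), and counts over a whole gene do not check a deletion of some exons. All directions below are those of the labels. The proximal tubule was present in all libraries: the summed level of 10 markers of its first 2 segments was 13761 to 16899 CPM in wildtype and 7077 to 11659 CPM in knockout libraries, and 5 of the 10 fell. Of 10 markers of the last segment, 3 fell, with sums of 2070 to 3347 and 2087 to 2688 CPM. Macrophage markers rose in 7 of 8 (sums of 163 to 190.3 against 238 to 334 CPM), fibroblast markers in 4 of 6, principal cell markers in 5 of 5 and intercalated cell markers in 5 of 6, while all 7 thick ascending limb and 5 of 6 distal convoluted tubule markers fell. In these bulk samples fewer cells of a type and less RNA per cell cannot be told apart.

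Of the 38 transporters, 4 rose, 7 fell and 27 did not pass the test (edgeR's quasi-likelihood test with Benjamini-Hochberg adjustment over all genes, adjusted p under 0.05). That is 28.9% of the members called, where 11.9% of all tested genes were called, 6.23% as risen and 5.7% as fallen. Throughout, ± stands for the standard error beside a log2 fold change and for the SD of 4 libraries beside a CPM. The risen members were Slc6a12, Slc38a3, Slc7a6 and Slc38a2, with log2 fold changes between 0.78 and 1.46. The fallen members were Slc38a1, Slc7a12, Slc7a9, Slc6a20b, Slc16a10, Slc3a2 and Slc38a10, with smaller changes of -0.71 to -0.27. The groups did not overlap in 15 members, 5 higher and 10 lower in the knockout libraries, and 18.5% of all tested genes had groups that did not overlap. The median log2 fold change of the 38 was -0.24, beside 0.00 for all genes. With library totals as the only scaling the median of all genes moved to 0.11 and that of the members to -0.14. The 4 increases passed in each fit that left out 1 library. The number of decreases was 3 without knockout library 2, 2 without knockout library 4, 3 without wildtype library 2, 2 without wildtype library 3 and 3 without wildtype library 4.

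**Figure D1:**
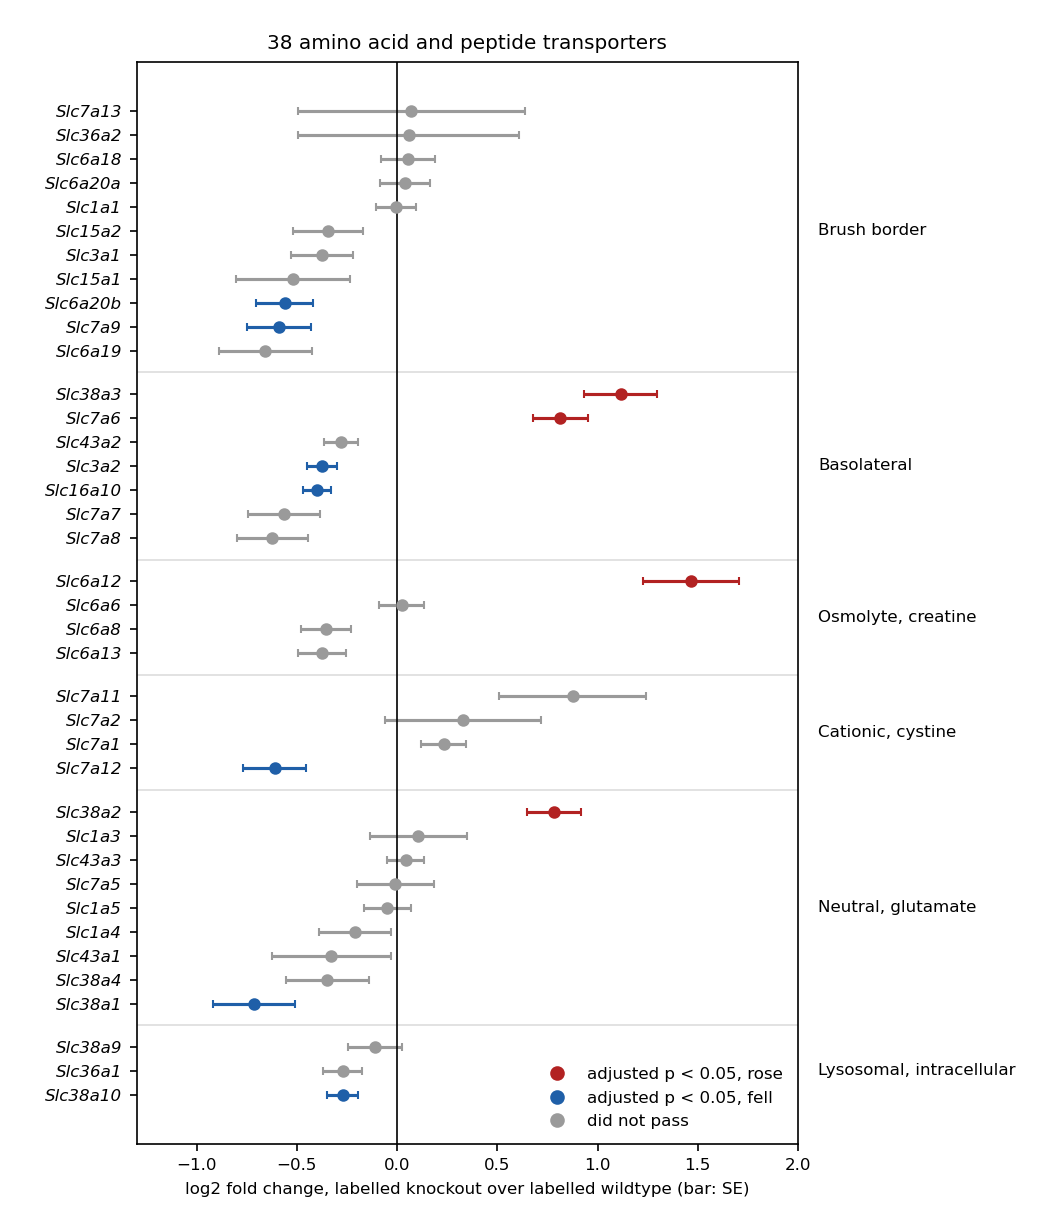
Log2 fold change of each of the 38 transporters (x axis, labelled knockout over labelled wildtype; points are edgeR estimates and bars are standard errors), grouped by role. The 4 red points that rose lie at 0.78 to 1.46, the 7 blue points that fell at -0.71 to -0.27, and grey points did not pass the test. The group labelled cationic and cystine also holds Slc7a12, placed there as a light chain of the same family.

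Because the deleted gene encodes an AP-2 factor, the promoters of the 3 risen members that had a window are shown, beside those of 2 fallen members, a basolateral and a brush border carrier. RefSeq windows from 250 bases before to 50 bases after a transcript start (GRCm38.p6) were at hand for 26 of the 38 members, 42 windows in all. The capitals mark the letters GCCNNNGGC, the palindromic core of the AP-2 motif, which reads the same on both strands. For a gene with several windows, the first that held these letters is shown, or the first window if none did. The Slc6a12 window is chr6:121342653-121342952 on the plus strand, 1 of 5 windows of this gene. The other windows of Slc6a12 do not hold the letters. The Slc7a6 window is chr8:106168604-106168903 on the plus strand, and the Slc38a2 window is chr15:96699679-96699978 on the minus strand. The Slc16a10 window is chr10:40142205-40142504 on the minus strand, and the Slc7a9 window is chr7:35448842-35449141 on the plus strand.
Slc6a12: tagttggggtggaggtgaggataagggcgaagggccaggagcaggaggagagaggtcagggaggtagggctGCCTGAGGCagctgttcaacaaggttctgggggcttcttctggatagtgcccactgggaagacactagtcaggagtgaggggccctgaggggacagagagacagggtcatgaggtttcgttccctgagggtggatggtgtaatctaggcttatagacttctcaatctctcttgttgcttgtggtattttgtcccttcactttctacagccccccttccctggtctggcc
Slc7a6: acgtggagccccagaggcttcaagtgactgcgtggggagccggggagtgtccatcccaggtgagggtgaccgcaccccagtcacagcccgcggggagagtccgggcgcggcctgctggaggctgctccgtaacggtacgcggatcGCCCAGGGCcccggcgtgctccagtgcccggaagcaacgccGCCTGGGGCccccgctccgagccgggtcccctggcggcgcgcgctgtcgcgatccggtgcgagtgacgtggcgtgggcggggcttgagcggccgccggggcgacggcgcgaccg
Slc38a2: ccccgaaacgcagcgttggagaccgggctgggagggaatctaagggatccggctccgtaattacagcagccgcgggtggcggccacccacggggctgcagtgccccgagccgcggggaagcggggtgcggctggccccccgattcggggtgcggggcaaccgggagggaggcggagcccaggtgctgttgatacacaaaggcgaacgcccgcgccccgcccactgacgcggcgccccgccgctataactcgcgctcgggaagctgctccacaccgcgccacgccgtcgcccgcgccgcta
Slc16a10: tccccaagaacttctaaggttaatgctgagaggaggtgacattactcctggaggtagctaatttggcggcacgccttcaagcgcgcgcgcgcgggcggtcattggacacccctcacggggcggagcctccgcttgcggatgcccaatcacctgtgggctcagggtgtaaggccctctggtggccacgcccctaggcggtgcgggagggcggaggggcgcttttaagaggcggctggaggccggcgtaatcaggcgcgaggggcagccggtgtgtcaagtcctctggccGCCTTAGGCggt
Slc7a9: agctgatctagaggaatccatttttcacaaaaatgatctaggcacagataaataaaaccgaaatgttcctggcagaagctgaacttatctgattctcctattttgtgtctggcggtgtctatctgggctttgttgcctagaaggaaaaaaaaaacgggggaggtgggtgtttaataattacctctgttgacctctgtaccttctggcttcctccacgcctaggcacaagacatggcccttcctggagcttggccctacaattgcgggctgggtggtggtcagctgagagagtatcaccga

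The Slc6a12 window holds 1 match, which starts at base -179 from the transcript start, and the Slc7a6 window holds 2, the first at base -105. The Slc16a10 window holds 1 match downstream of the start, at base 38. The windows of Slc38a2, with 73.0% G and C, and of Slc7a9, with 47.0%, hold none. Among the risen members with a window, Slc6a12 and Slc7a6 carry these letters and Slc38a2 lacks them. Among the fallen members with a window, Slc16a10 carries them. The windows of the fallen members Slc7a9, Slc6a20b, Slc3a2 and Slc38a10 lack them. A link between these letters and the direction of change was not tested. The letters were found in 8 of the 26 members with a window, and in 11 of their 42 windows, against 16.6% of all 32851 windows of the same length. The other 5 genes are Slc1a4, Slc43a1, Slc43a2, Slc6a19 and Slc7a7, none of which passed the test. Of 3 further motifs searched on both strands, the letters TGATGNAA (a core of the ATF4 composite site) were in 3 members, CACGTG (an E-box) in 2 and GTTAAT (one arm of the HNF1 site) in 6. Counted by window, they were in 4, 2 and 6 of the 42 member windows, against 3.97%, 7.15% and 7.1% of all windows. A match of letters is a description of the window and not evidence of binding.

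Among the 11 carriers of the brush border, Slc7a9 and Slc6a20b fell, and the other 9 were not called in either direction. That is 18.2% called, beside 11.9% of all tested genes. Slc7a9 encodes the light chain that takes up cystine and dibasic amino acids together with rBAT. Its level was 159.6, 99.3, 151 and 117 CPM in knockout libraries 1 to 4 and 166, 229, 216 and 183 CPM in wildtype libraries 1 to 4. Every knockout library lay below every wildtype library, though knockout library 1 was close to wildtype library 1. The log2 fold change was -0.59 ± 0.16 (SE; edgeR adjusted p = 0.0396), a level 1.51-fold lower. The adjusted p was 0.0729 without knockout library 2, 0.105 without knockout library 4, and 0.0932, 0.0976 and 0.0611 without wildtype libraries 2, 3 and 4.

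Slc6a20b, one of a pair of mouse genes for imino acid carriers that take up proline, stood at 185, 117, 184 and 141 CPM in the knockout libraries and at 209.9, 243, 255 and 216 CPM in the wildtype libraries. The groups did not overlap. Its log2 fold change was -0.56 ± 0.14 (edgeR adjusted p = 0.031). Leaving out knockout library 4 gave an adjusted p of 0.0877, and leaving out wildtype library 2, 3 or 4 gave 0.0735, 0.0812 and 0.0511. The counts were made without strand, and 28.5% of the exon bases of Slc6a20b overlap exons of Sacm1l on the opposite strand, so reads there cannot be told apart. Sacm1l itself had a log2 fold change of -0.24 ± 0.063 (edgeR adjusted p = 0.0299).

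The other copy, Slc6a20a, had a log2 fold change of 0.04 ± 0.13 (edgeR adjusted p = 0.877), with 16.2 to 20.9 CPM in the knockout libraries and 14.9 to 21.0 CPM in the wildtype libraries. Of its 50-base words, 26.7% also occur in some other gene, 631 of them in Slc6a20b. Reads of the shared stretches could have been set aside as not uniquely aligned, or counted to either gene if they aligned uniquely. Within each library the ratio of Slc6a20b to Slc6a20a was lower in all 4 knockout libraries. Their log2 ratios were 3.18, 2.84, 3.14 and 2.80, against 3.37, 3.53, 3.70 and 3.86 in the wildtype libraries. The difference was -0.62 (exact two-sided permutation p = 0.0286, the smallest that 4 against 4 libraries can give, and 0.229 adjusted over 8 ratios), which did not pass.

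Slc3a1, the heavy chain partner of Slc7a9, was at 513 ± 110.2 CPM in knockout and 665 ± 86.8 CPM in wildtype libraries (SD, n = 4 each), and the groups overlapped. Its log2 fold change was -0.38 ± 0.16 (edgeR adjusted p = 0.147), and 26.5% of its exon bases overlap Prepl on the opposite strand. Slc6a19, the main brush border carrier of neutral amino acids and the gene of Hartnup disorder, was read at 279, 126, 201 and 186 CPM in the knockout libraries and 259, 392, 319.5 and 280.4 CPM in the wildtype libraries. Only knockout library 1 lay within the wildtype range. The log2 fold change of Slc6a19 was -0.66 ± 0.23 (edgeR adjusted p = 0.106). Without knockout library 1 it passed, with an adjusted p of 0.0239, and DESeq2 gave 0.0135.

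Slc6a18, the most abundant member per length, is a glycine and neutral amino acid carrier of the proximal tubule. It stood at 1476, 1754, 2109 and 1900.2 CPM in the knockout libraries and 1514, 1514, 1905 and 2027 CPM in the wildtype libraries, a log2 fold change of 0.06 ± 0.13 (edgeR adjusted p = 0.826). Slc1a1 (EAAC1), which takes up glutamate and aspartate, had a log2 fold change of 0.00 ± 0.099 (edgeR adjusted p = 0.988), with means of 361 and 362 CPM. On the opposite strand, 4430402I18Rik overlaps 32.0% of the exon bases of Slc1a1. The peptide carrier of the kidney, Slc15a2 (PEPT2), had means of 264 ± 39.4 and 335 ± 83.2 CPM and a log2 fold change of -0.34 ± 0.18 (edgeR adjusted p = 0.243). Its intestinal relative Slc15a1 (PEPT1) was almost absent, at 7 to 10 counts in each knockout library and 10 to 12 in each wildtype library. Its groups did not overlap in CPM, and its log2 fold change of -0.52 ± 0.28 did not pass (edgeR adjusted p = 0.289).

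Slc7a13, a light chain of the last proximal segment, and Slc36a2, a proton-coupled carrier of glycine and proline, varied more within than between the groups. Slc7a13 ran from 3.61 to 17.5 CPM in the knockout and from 3.95 to 13.0 CPM in the wildtype libraries. Slc36a2 ran from 4.59 to 20.1 CPM in the knockout libraries, and in the wildtype group it was 20.6 CPM in library 1 and 6.87 to 7.10 CPM in the other 3. Their log2 fold changes were 0.07 ± 0.57 and 0.06 ± 0.55.

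At the basolateral membrane none of the 7 carriers had overlapping groups: 2 were higher and 5 lower in the knockout libraries, and 4 passed the test. Over all tested genes, 18.5% had groups that did not overlap and 11.9% were called. Slc38a3 (SNAT3), through which proximal tubule cells take glutamine from the blood for ammonia production, was at 105, 187, 158 and 141 CPM in the knockout libraries and at 82.0, 54.4, 65.9 and 70.4 CPM in the wildtype libraries. All knockout values lay above all wildtype values, with knockout library 1 the lowest of its group and wildtype library 1 the highest. Slc38a3 rose 2.17-fold (log2 fold change 1.12 ± 0.18, edgeR adjusted p = 0.0051). It passed in 16 of 17 alternative fits; with the clock score in the model, described below, it was 0.67 (adjusted p = 0.119).

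Slc7a6 (y+LAT2), a light chain of the heavy chain Slc3a2 that exchanges dibasic for neutral amino acids, rose as well. It was read at 16.3, 21.8, 16.7 and 16.5 CPM in the knockout and at 11.8, 10.7, 8.67 and 9.4 CPM in the wildtype libraries. Knockout library 2 stood above the other 3 knockout libraries, which were close together, and the groups did not overlap. For Slc7a6 the log2 fold change was 0.81 ± 0.14 (edgeR adjusted p = 0.0034), and 0.54 with the clock score in the model (adjusted p = 0.119).

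Slc3a2, the heavy chain itself, fell. Its values were 219, 217, 239 and 252 CPM in the knockout libraries and 284, 320.5, 301 and 295 CPM in the wildtype libraries. The highest knockout value was below the lowest wildtype value. The log2 fold change was -0.37 ± 0.076 (edgeR adjusted p = 0.00956), and -0.39 with the clock score in the model (adjusted p = 0.0949). Thus the light chain Slc7a6 and the heavy chain that carries it moved in opposite directions.

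Slc16a10 (TAT1), which lets aromatic amino acids leave the cell, gave the most stable decrease. It was at 53.5, 52.0, 59.4 and 57.0 CPM in the knockout and at 69.6, 78.9, 69.9 and 74.0 CPM in the wildtype libraries. The spread within each group was small beside the distance between them. The log2 fold change of Slc16a10 was -0.40 ± 0.07 (edgeR adjusted p = 0.00466). It is the one called member that passed in all 17 alternative fits, with values between -0.44 and -0.29.

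The remaining 3 basolateral carriers were lower without overlap but did not pass. Slc7a7 (y+LAT1), the light chain mutated in lysinuric protein intolerance, was at 118, 86.0, 150.4 and 134 CPM in the knockout libraries against 153, 159, 224 and 185 CPM, with a log2 fold change of -0.56 ± 0.18 (edgeR adjusted p = 0.074). It passed without knockout library 3 (adjusted p = 0.0449), and 8.82% of its exon bases overlap Oxa1l. Slc7a8 (LAT2), an exchanger of neutral amino acids, was at 186, 133, 184 and 202 CPM against 267, 367, 227 and 224 CPM, with a log2 fold change of -0.62 ± 0.18 (edgeR adjusted p = 0.0528). It passed without wildtype library 4 (adjusted p = 0.0482). Slc43a2 (LAT4), a uniporter of branched-chain amino acids and phenylalanine, was at 225, 189, 191 and 176 CPM against 239, 248, 229.9 and 231 CPM. Its log2 fold change was -0.28 ± 0.083 (edgeR adjusted p = 0.0508, and 0.0096 without knockout library 1). DESeq2 called all 3, with adjusted p of 0.0109, 0.00394 and 0.0149.

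**Figure D2:**
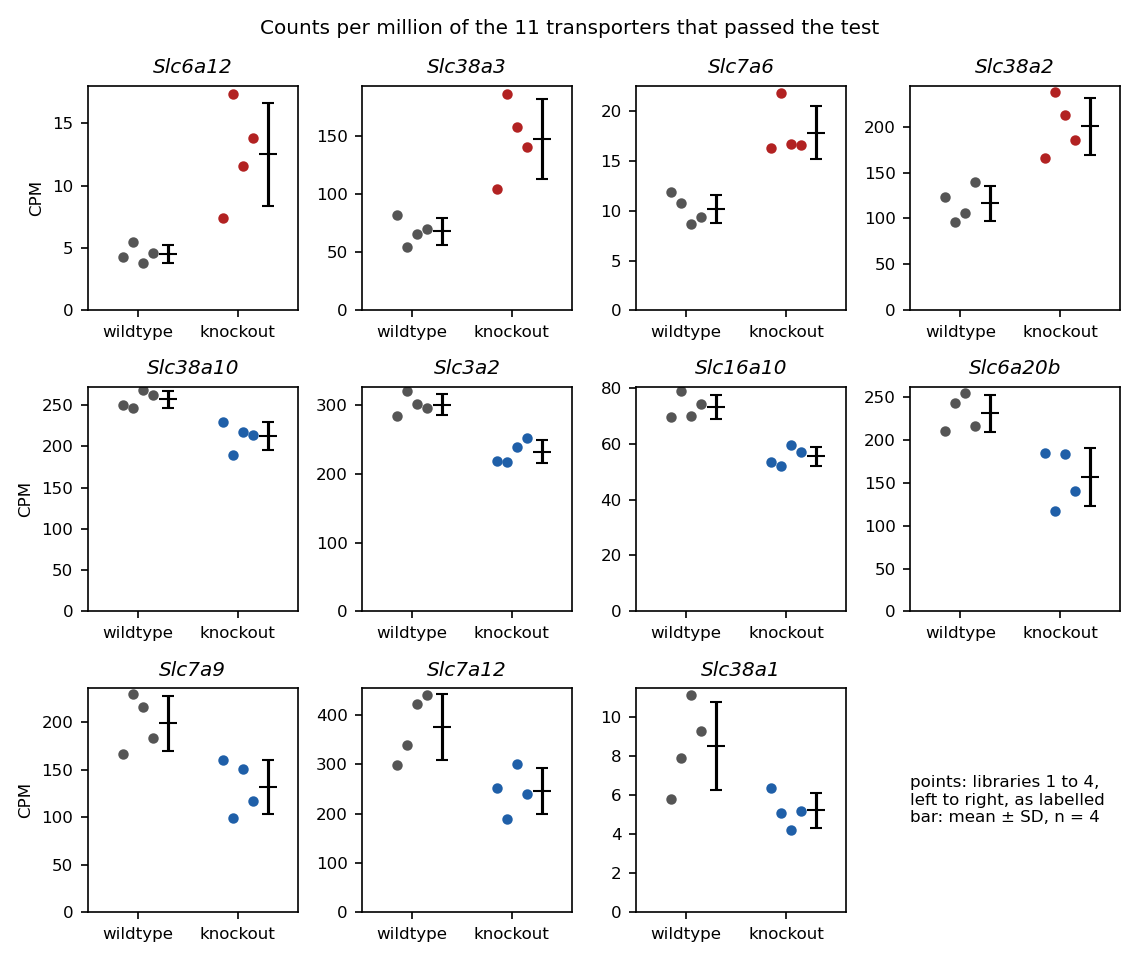
Scaled CPM (y axis, from 0) of the 11 transporters that passed the test, by label; points are libraries 1 to 4 from left to right, and bars are the mean and SD of 4. The groups are apart in 9 of the 11 panels and overlap for Slc7a12 and Slc38a1; knockout library 1 is the lowest knockout point in all 4 upper panels.

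The largest change among the 38 was that of Slc6a12 (BGT1), the betaine carrier through which cells of the medulla collect an osmolyte. It was at 7.42, 17.3, 11.6 and 13.8 CPM in the knockout libraries and at 4.29, 5.48, 3.78 and 4.61 CPM in the wildtype libraries. The knockout values ranged widely, from library 1 to library 2, and all lay above the wildtype values. Slc6a12 rose 2.76-fold (log2 fold change 1.46 ± 0.24, edgeR adjusted p = 0.0035). With the clock score in the model the log2 fold change was 0.88 (adjusted p = 0.168).

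The 3 other carriers of osmolytes and creatine did not pass the test. Slc6a6, the taurine carrier, was at 381 ± 51.4 and 376 ± 40.1 CPM (log2 fold change 0.02 ± 0.11, edgeR adjusted p = 0.923). Slc6a8, the creatine carrier, had groups that did not overlap, with 174 to 245 CPM in the knockout and 248 to 320.0 CPM in the wildtype libraries, and a log2 fold change of -0.35 ± 0.12 (edgeR adjusted p = 0.091, DESeq2 0.0482). Slc6a13, a carrier of GABA, betaine and taurine, was at 139.7, 115, 176 and 139.9 CPM against 184, 165, 206 and 184 CPM. Its log2 fold change was -0.38 ± 0.12 (edgeR adjusted p = 0.0648, and 0.0154 without knockout library 3).

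Other genes of osmolyte handling, listed after these values were seen, held 2 decreases and no increase beside Slc6a12. Akr1b3, the aldose reductase that makes sorbitol, fell from 21.6 ± 3.21 to 10.5 ± 1.56 CPM (log2 fold change -1.04 ± 0.14, edgeR adjusted p = 0.00104). Slc5a3, the inositol carrier, had a negative value of -0.64 ± 0.20 on the log2 scale (adjusted p = 0.0725, and 0.0188 without knockout library 2). Hspa4l, a chaperone gene of the hypertonic response, fell by 0.40 ± 0.10 on the log2 scale (edgeR adjusted p = 0.0318; 0.0834, 0.0567 and 0.0896 without knockout libraries 2, 3 and 4, and 0.0674 without wildtype library 3). Nfat5, the transcription factor of that response, was at 208 ± 17.6 and 174 ± 13.2 CPM (log2 fold change 0.26 ± 0.083, adjusted p = 0.0713).

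Of the 9 widespread carriers of neutral amino acids and glutamate, Slc38a2 rose, Slc38a1 fell and 7 did not pass. That is 22.2% called, beside 11.9% of all tested genes. Slc38a2 (SNAT2), a sodium-coupled importer of alanine, glutamine and other small neutral amino acids, was at 166, 237, 212 and 185 CPM in the knockout libraries and at 123, 96.4, 106 and 140.2 CPM in the wildtype libraries. The groups did not overlap. Its log2 fold change was 0.78 ± 0.14 (edgeR adjusted p = 0.00499), and 0.54 with the clock score in the model (adjusted p = 0.163). Slc38a1 (SNAT1), a relative of similar substrates, was much less abundant, at 6.37, 5.09, 4.19 and 5.2 CPM against 5.80, 7.89, 11.1 and 9.28 CPM. Knockout library 1 lay above wildtype library 1, so the groups overlapped. For Slc38a1 the log2 fold change was -0.71 ± 0.20 (edgeR adjusted p = 0.0433), and -0.06 with the clock score in the model (adjusted p = 0.91). Leaving out knockout library 2, 3 or 4 gave adjusted p of 0.108, 0.101 and 0.096, and leaving out wildtype library 2, 3 or 4 gave 0.0691, 0.12 and 0.0989.

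The other 7 of these carriers had log2 fold changes between -0.35 and 0.11. Slc1a5 (ASCT2), an exchanger of glutamine, was at 94.9 ± 12.8 and 98.1 ± 12.8 CPM (log2 fold change -0.05 ± 0.12, edgeR adjusted p = 0.825). Slc1a4 (ASCT1), which exchanges serine and alanine, was at 36.7 ± 7.52 and 42.4 ± 8.86 CPM (-0.21 ± 0.18, adjusted p = 0.504). Slc43a3, a family member since described as a nucleobase carrier, was at 30.4 ± 2.95 and 29.6 ± 2.24 CPM (0.04 ± 0.091, adjusted p = 0.804). The 4 others, Slc1a3, Slc7a5, Slc38a4 and Slc43a1, were at 14.8 CPM or less in each library. Slc1a3 (GLAST), a glutamate carrier, and Slc43a1 (LAT3), of branched-chain amino acids, had log2 fold changes of 0.11 ± 0.24 and -0.33 ± 0.29. Slc7a5 (LAT1), the light chain of many dividing cells, had 5.73 ± 0.66 and 5.74 ± 1.53 CPM (log2 fold change -0.01 ± 0.19, edgeR adjusted p = 0.983). The adjusted p of Slc38a4, a neighbour of Slc38a1 and Slc38a2 on chromosome 15, was 0.309, with a log2 fold change of -0.35 ± 0.21.

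Among 4 further members of the Slc7 family, Slc7a12 fell and none rose. Slc7a12 is a light chain of the same family that is abundant in mouse kidney, and its physiological partner is not settled. It was at 251, 189, 301 and 240.1 CPM in the knockout libraries and at 298, 339, 421 and 439.8 CPM in the wildtype libraries, and knockout library 3 overlapped wildtype library 1. The log2 fold change was -0.61 ± 0.16 (edgeR adjusted p = 0.0324). Leaving out knockout library 1, 2 or 4 gave adjusted p of 0.0609, 0.0708 and 0.0845, and leaving out wildtype library 3 or 4 gave 0.0841 and 0.0766. Slc7a1 (CAT1), the general importer of arginine and lysine, was at 35.7 ± 3.11 and 30.3 ± 4.66 CPM (log2 fold change 0.23 ± 0.11, edgeR adjusted p = 0.208). Slc7a2 (CAT2) ranged from 4.31 to 9.0 CPM in the knockout and from 2.18 to 7.67 CPM in the wildtype libraries (0.33 ± 0.39, adjusted p = 0.636). Slc7a11 (xCT), the cystine and glutamate exchanger, was close to absent, with 18, 15, 15 and 16 counts in the knockout and 4, 10, 5 and 13 counts in the wildtype libraries. The groups of Slc7a11 did not overlap, and its log2 fold change of 0.88 ± 0.37 did not pass (edgeR adjusted p = 0.149).

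The 3 lysosomal and intracellular members all had negative values, and Slc38a10 passed. Slc38a10, an intracellular member of the glutamine carrier family, was at 230.0, 189, 218 and 214 CPM in the knockout libraries and at 249.6, 247, 268 and 263 CPM in the wildtype libraries. The groups did not overlap. Its log2 fold change was -0.27 ± 0.076 (edgeR adjusted p = 0.0406), and 6.77% of its exon bases overlap Gm11769 on the opposite strand. It passed in 5 of 17 alternative fits. Without knockout libraries 2, 3 and 4 in turn the adjusted p was 0.104, 0.0665 and 0.0912, and without wildtype libraries 1 to 4 in turn it was 0.0618, 0.0627, 0.102 and 0.0913. Slc36a1 (PAT1), a proton-coupled exporter of the lysosome, was at 109 ± 11.7 and 131 ± 13.9 CPM (log2 fold change -0.27 ± 0.098, edgeR adjusted p = 0.0983, and 0.0434 without wildtype library 1). Slc38a9, the arginine sensor of the lysosomal surface, was at 10.5 ± 1.43 and 11.4 ± 1.56 CPM (-0.11 ± 0.14, adjusted p = 0.645).

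Levels between genes can be compared per length, here as wildtype CPM per kilobase of exon. On that scale Slc6a18 led with 395, followed by Slc3a1 with 293, Slc7a12 with 215, Slc3a2 with 99.3, Slc7a9 with 95.6 and Slc1a1 with 95.2. The risen members were of low to middle level, Slc38a2 at 25.0, Slc38a3 at 19.2, Slc7a6 at 2.71 and Slc6a12 at 1.70 CPM per kilobase. Of the fallen members, Slc38a10 was at 47.4, Slc6a20b at 36.6, Slc16a10 at 11.1 and Slc38a1 at 0.79. The summed CPM of all 38, which counts long and abundant transcripts most, was 5994, 5684, 6925 and 6119 in the knockout and 6423, 6792, 7415 and 7330 in the wildtype libraries, so that knockout library 3 lay within the wildtype range.

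Ratios within a library do not depend on the scaling between libraries. For 8 pairs of partner subunits or paired carriers, none of the differences passed after adjustment. Slc7a9 relative to its heavy chain Slc3a1 differed by -0.21 on the log2 scale, with overlapping groups (exact permutation p = 0.114, adjusted 0.229). The light chains Slc7a7, Slc7a8 and Slc7a5 relative to Slc3a2 differed by -0.20, -0.23 and 0.40, and Slc6a19 relative to its chaperone Cltrn (collectrin) by -0.38. All of these groups overlapped. The ratios of Slc7a13 to Slc3a1 and of Slc15a2 to Slc15a1 differed by 0.35 and 0.19.

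Member genes that lie within 1 Mb of each other allowed a further comparison, added after the data were seen. Slc38a1, Slc38a2 and Slc38a4 lie side by side on chromosome 15 with no other protein-coding gene between them. The log2 ratio of Slc38a1 to Slc38a2 was -4.70, -5.53, -5.65 and -5.15 in the knockout libraries and -4.40, -3.61, -3.25 and -3.91 in the wildtype libraries, a difference of -1.47 without overlap. The ratio of Slc38a2 to Slc38a4 differed by 1.14, also without overlap. Slc6a12 and Slc6a13, adjacent on chromosome 6, showed the largest such difference. The log2 ratio of Slc6a13 to Slc6a12 was 4.23, 2.72, 3.92 and 3.34 in the knockout libraries and 5.41, 4.91, 5.76 and 5.31 in the wildtype libraries, a difference of -1.79. For each of these 3 ratios the exact permutation p was 0.0286, the smallest possible, and 0.0667 after adjustment over 7 ratios, so none passed. The 4 other neighbouring pairs of this family, Slc36a2 and Slc36a1, Slc6a18 and Slc6a19, Slc7a7 and Slc7a8, and Slc43a1 and Slc43a3, had overlapping groups.

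**Figure D3:**
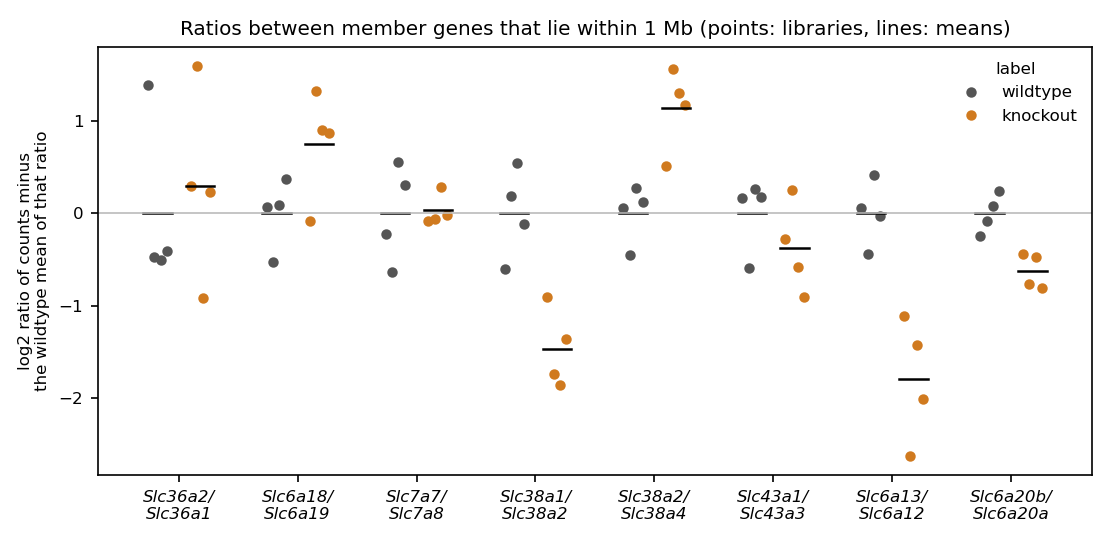
Log2 ratio of counts of 8 pairs of members that lie within 1 Mb (y axis, minus the wildtype mean of that ratio); each point is 1 library and each line a group mean. The groups are apart for Slc38a1/Slc38a2, Slc38a2/Slc38a4, Slc6a13/Slc6a12 and Slc6a20b/Slc6a20a and overlap for the other 4 pairs.

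Genes that work with the transporters were read from lists made by function. The counts called in them stand beside 11.9% of all tested genes. The share called was 21.4% for other plasma membrane carriers and 33.3% for accessory and trafficking genes. It was 20% for brush border peptidases, 20% for glutamine and ammonia and 47.6% for amino acid catabolism. Other amino acid carriers of the plasma membrane numbered 28, of which 14 were tested: 3 fell, none rose, and the median log2 fold change was 0.06. Slc6a17, a carrier of neutral amino acids known from synaptic vesicles, fell from 54.6 ± 10.4 to 26.0 ± 2.86 CPM (log2 fold change -1.07 ± 0.14, edgeR adjusted p = 9.17e-04). Slc6a14, a broad carrier of neutral and cationic amino acids, had 1, 2, 0 and 0 counts in the knockout and 14, 18, 16 and 22 counts in the wildtype libraries (edgeR adjusted p = 6.8e-04). Slc6a7, the proline carrier of neurons, had 1, 0, 4 and 5 counts against 65, 96, 50 and 28 counts (edgeR adjusted p = 0.00238). All 3 passed in each alternative fit that tested them, 17 for Slc6a17 and Slc6a7 and 16 for Slc6a14. Slc6a9, the glycine carrier, had the next smallest adjusted p, 0.117.

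None of 6 other lysosomal carriers and none of 8 tested mitochondrial carriers passed. The mitochondrial list had a median log2 fold change of -0.19, and its ornithine carrier Slc25a15 came nearest to the threshold (-0.37 ± 0.11, edgeR adjusted p = 0.0578; 0.0277 without knockout library 3 and 0.0253 without wildtype library 4).

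Of 6 accessory and trafficking genes, 2 fell. Pdzk1, a scaffold of the brush border, fell by 0.58 ± 0.16 on the log2 scale (edgeR adjusted p = 0.0356; 0.0981 without knockout library 4, and 0.0648, 0.0752, 0.0783 and 0.0786 without wildtype libraries 1 to 4). Cltrn was at 1234 ± 148 and 1528 ± 73.6 CPM (-0.31 ± 0.10, adjusted p = 0.0714). Sgk1, a kinase known to raise the activity of several carriers, was at 297 ± 101.2 and 169.9 ± 40.3 CPM (0.81 ± 0.30, adjusted p = 0.131, and 0.00569 without knockout library 1).

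The brush border peptidases release the amino acids that the carriers take up, and all 10 had negative log2 fold changes, with a median of -0.30. Mep1b, a subunit of meprin, fell from 304 ± 36.5 to 166 ± 18.7 CPM (log2 fold change -0.88 ± 0.11, edgeR adjusted p = 5.98e-04), and Dpep1, the renal dipeptidase, from 139 ± 18.5 to 88.2 ± 9.69 CPM (-0.66 ± 0.11, adjusted p = 0.00307). The other 8 did not pass.

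In the metabolism of glutamine and ammonia, 1 of 10 genes rose and 1 fell. Glul, glutamine synthetase, fell from 1117 ± 187 to 633 ± 36.7 CPM (log2 fold change -0.82 ± 0.12, edgeR adjusted p = 0.00148) and passed in 17 of 17 alternative fits. Aldh18a1, of proline and ornithine synthesis, rose from 5.95 ± 0.78 to 9.00 ± 1.59 CPM (0.59 ± 0.16, adjusted p = 0.0351). Its call was lost without any of 7 libraries: the adjusted p was 0.0702, 0.0514 and 0.102 without knockout libraries 1, 2 and 4, and 0.0853, 0.0816, 0.0609 and 0.0508 without wildtype libraries 1 to 4. Pck1, the gluconeogenic enzyme that accompanies ammonia production, was at 2766 ± 863 and 4281 ± 929 CPM (-0.63 ± 0.22, adjusted p = 0.0975, and 0.0178 without knockout library 3). So Slc38a3, the glutamine carrier, rose in libraries in which Glul fell, while the value of Pck1 did not pass.

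Of these lists, amino acid catabolism held the most decreases: 10 of 21 genes fell, none rose, and the median log2 fold change was -0.36. Ddo, D-aspartate oxidase, fell by 0.75 ± 0.097 on the log2 scale (edgeR adjusted p = 8.72e-04), and Bckdhb, of branched-chain degradation, by 0.59 ± 0.10 (adjusted p = 0.00443). Both passed in 17 of 17 alternative fits. Shmt1, a serine and glycine enzyme, fell by 0.53 ± 0.09 (adjusted p = 0.0038), and Csad, which makes the taurine precursor, by 0.53 ± 0.095 (adjusted p = 0.0051). With the clock score in the model 3 of the 21 fell, and without knockout libraries 1 and 4 together 6 fell. Markers of the first proximal segments, 5 of 10 of which fell, moved with these genes and with the fallen carriers of the brush border, and their part in these decreases was not tested.

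Slc38a2, Slc7a11 and Slc3a2 are among the members known as targets of ATF4, the factor of the amino acid response. Of these, Slc38a2 rose, Slc3a2 fell and Slc7a11 did not pass. In a list of ATF4 and its targets 2 of 14 genes rose and none fell. That is 14.3% called, where 11.9% of all tested genes were called. Ddit4 had a log2 fold change of 1.05 ± 0.24 (edgeR adjusted p = 0.0252) and Cebpb of 0.76 ± 0.21 (adjusted p = 0.0378). The number of risen genes in the list was 4 without knockout library 1, 0 without knockout library 2 or 4 or wildtype library 2 or 3, and 1 without knockout library 3 or wildtype library 4. Psat1, a serine synthesis enzyme, was at 48.9 ± 5.52 and 38.5 ± 4.41 CPM (0.35 ± 0.10, adjusted p = 0.0502, and 0.0359 and 0.0434 without knockout or wildtype library 1). Mthfd2, a mitochondrial folate enzyme, was at 12.4 ± 1.73 and 8.09 ± 2.96 CPM (0.60 ± 0.23, adjusted p = 0.122, and 0.0263 without wildtype library 4). Of the 14 genes, 9 had positive and 5 negative log2 fold changes. The negative values were -0.93 ± 0.47 for Chac1, -0.85 ± 1.01 for Ddit3 and -0.61 ± 0.27 for Trib3 (edgeR adjusted p = 0.241, 0.644 and 0.176). Those of Shmt2 and Psph were -0.24 ± 0.10 and -0.20 ± 0.10 (edgeR adjusted p = 0.165 and 0.232). Atf4 itself stood at a log2 fold change of 0.45 ± 0.22 (adjusted p = 0.224), and Asns, the asparagine synthetase that is a common readout of this response, 0.25 ± 0.25 (adjusted p = 0.562).

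**Figure D4:**
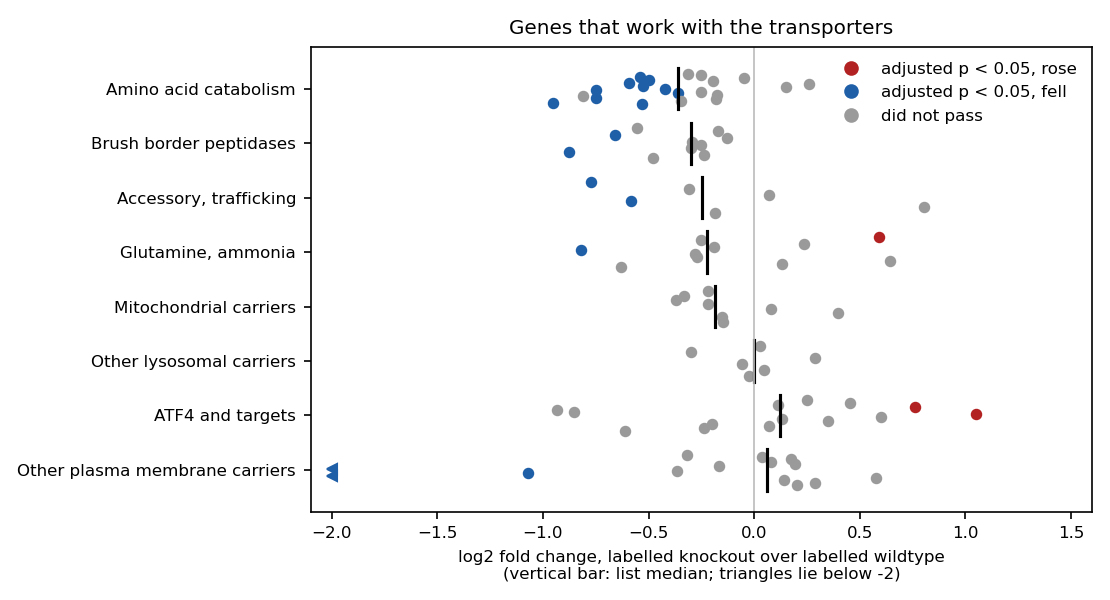
Log2 fold change of each tested gene (x axis; points are edgeR estimates, vertical bars list medians) in 8 lists of genes that work with the transporters, and triangles stand for values below -2. Blue points that fell are most frequent in amino acid catabolism, 10 of 21, and the medians run from -0.36 there to 0.12 in the ATF4 list.

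The libraries within a group were not alike for these genes. Knockout library 2 was the lowest of its group in 17 of the 38 members and in 6 of the 7 that fell, and it was the highest of its group in all 4 that rose. It also had the lowest sum of first-segment proximal markers, 7077 CPM. Knockout library 1 was the lowest of its group in all 4 risen members and the highest in 4 of the 7 fallen ones. In these members it stood nearest to the wildtype libraries. Among the other fallen members knockout library 3 was the highest of its group in 2 and knockout library 4 in 1. Within the wildtype group library 1 was the lowest in 6 of the 7 fallen members. Knockout library 4 carried 238 CPM of adrenal cortex markers against 6.31 to 8.84 CPM in the other 7 libraries. Without knockout libraries 1 and 4 together, the 4 increases passed and 2 decreases did, those of Slc16a10 and Slc3a2.

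A score of the circadian clock, the mean log2 CPM of 9 clock output genes minus that of 4 clock activator genes, ordered the libraries in part like these carriers. It was 1.17, -0.99, -1.33 and -0.59 in the knockout libraries and 0.42, 1.68, 3.23 and 2.15 in the wildtype libraries, so that knockout library 1 lay within the wildtype range. With this score as a further term in the model, 1 of the 11 calls was kept, that of Slc16a10 (log2 fold change -0.44, adjusted p = 0.0478). The estimates of the 4 increases went to 0.54 to 0.88, and the standard error was wider for 10 of the 11, all but Slc38a1. The estimate of Slc3a2 hardly moved, and that of Slc38a1 went to -0.06. Over all genes 758 passed in this fit, against 1817 without the score. The genes of the score themselves differed between the labels, with median log2 fold changes of -1.26 for clock output and 1.16 for clock activator genes. The score therefore overlaps with the label, and in these 8 libraries this fit cannot tell their parts apart. The labels do not give the time of day of collection, and its part in these differences was not tested.

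**Figure D5:**
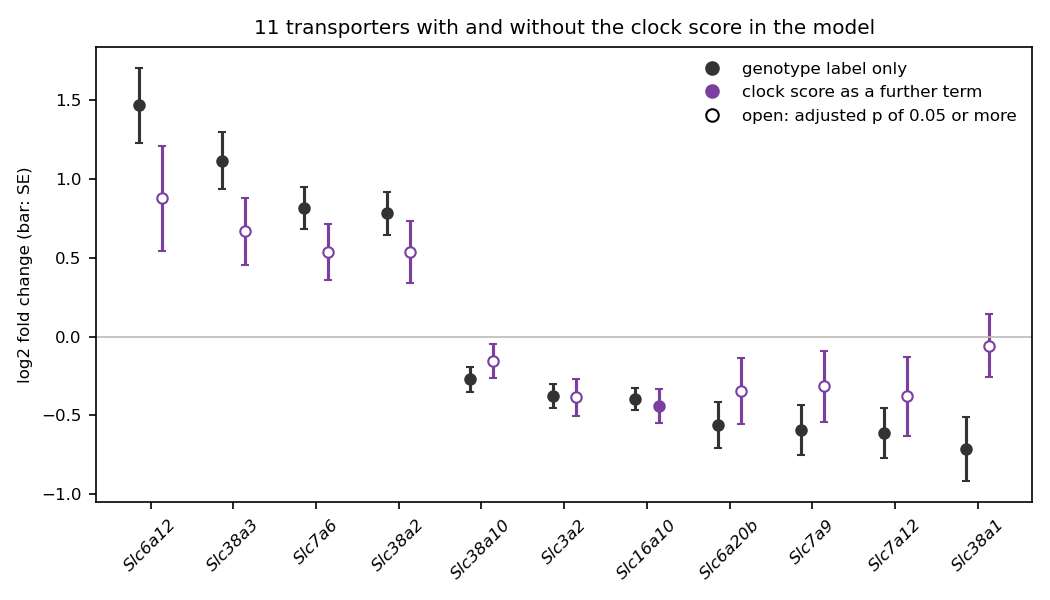
Log2 fold change (y axis; bars are standard errors) of the 11 transporters that passed, in the model with the genotype label only (black) and with the clock score as a further term (purple); open points have an adjusted p of 0.05 or more. Slc16a10 is the one filled purple point; the 4 increases go to 0.54 to 0.88 and Slc38a1 to -0.06.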

How the data were processed

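Total RNA of whole kidney was sequenced from 8 libraries, 4 labelled knockout and 4 labelled wildtype. The deposited values are raw counts of reads per gene, 1 file per library. The submitters' processing notes name build mm9 and the tools STAR, HTSeq and edgeR, with no version, annotation or role. Per the labels' protocols the library kit keeps strand, but the counting was named as not stranded, so reads of overlapping genes on opposite strands cannot be told apart.

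The counter's summary rows were left out. They held 15.4% to 18% of the records of a library as not uniquely aligned and 2.17% to 2.42% as ambiguous between genes. A gene name table gave symbols for 32860 of 37583 identifiers. Genes were kept by filterByExpr, scaled by TMM and compared with edgeR's quasi-likelihood test (edgeR 4.0.16, R 4.3.3, robust, two-sided) with Benjamini-Hochberg adjustment over 15228 genes and a threshold of 0.05, a script that was tested on simulated data first. CPM are counts per library total after scaling. Ratios used counts plus 0.5 and an exact permutation test over 70 assignments. Exon lengths and overlaps are from GENCODE M21 and promoters from RefSeq. All members are accounted for, with values for each that passed, for those with a mean log2 CPM of at least 4 and for partners of those that passed; in each companion list up to 4 genes with the smallest adjusted p are named, apart from 2 genes that are not reported here. Chromatin, protein and transport were not analysed here. The members, lists and alternatives were chosen with earlier results of these data known. Alternatives were DESeq2 (1.42.0) and its size factors, library totals, limma voom (3.58.1), no filter, at least 1 CPM in 4 libraries, a replicate block, the clock score, and leaving out libraries. Pairs of libraries of a group differed by far more than counting noise (chi-square of 9.72 to 24.8 per degree of freedom).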

Additional observations from a re-analysis of the deposited data

Results flagged for a closer look

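In 7 of 106 groups of 4 libraries, taken over the 38 members and 15 ratios, 1 library stood apart by Dixon's ratio, the gap to the nearest library divided by the range of the group, at its 95% critical value. Chance flags about 1 in 20 groups. Slc36a2, the proton-coupled glycine and proline carrier, was highest in wildtype library 1, at 20.6 CPM against 6.87 to 7.10 CPM (ratio 0.983), and the same library gave the highest ratio of Slc36a2 to its neighbour Slc36a1 (0.944). Slc43a1 was lowest in wildtype library 2, at 2.05 CPM against 4.06 to 4.37 CPM (0.8701), as was its ratio to Slc43a3 (0.8884). Slc7a6, one of the risen members, was highest in knockout library 2, at 21.8 CPM against 16.3 to 16.7 CPM (0.926). Slc6a20a was lowest in knockout library 2, at 16.2 CPM against 20.1 to 20.9 CPM (0.8369). Slc38a4 was highest in knockout library 1, at 3.51 CPM against 2.4 to 2.57 CPM (0.8442).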

How the results depend on the processing

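No member reversed its direction in a fit in which it passed. The 4 increases passed in each alternative but the clock score, under which 0 did. The number of members called was 11, and it was 17 with DESeq2, 1 with the clock score, 6 without knockout libraries 1 and 4 together, and 6 to 12 when 1 library was left out. The number of decreases was 7, and it was 4 with library totals only, 13 with DESeq2, 4 without a filter, 1 with the clock score, 2 without knockout libraries 1 and 4, and 2 to 8 when 1 library was left out. Over all genes 1817 were called, against 1094 with the replicate block, 758 with the clock score, 912 without knockout libraries 1 and 4, and 1076 to 1940 when 1 library was left out. Of the companion genes 21 were called, and 10 with the clock score. With library totals only, 76.5% of the called genes rose, against 52.2%. The cause of these shifts was not tested. Replicate numbers appear in both groups, but same-numbered libraries deviated together in 1 of 4 pairs (correlations of -0.215, -0.21, -0.0527 and 0.157), and 1 of 4 libraries correlated best with its own number. With the replicate block 10 members were called, 4 up and 6 down; Slc7a9, Slc38a1 and Slc38a10 did not pass (adjusted p = 0.0844, 0.135 and 0.0931), and Slc7a7 and Slc6a13 did (0.0168 and 0.0325). Members at a few counts per library, Slc15a1 and Slc7a11, allow no firm statement at this depth.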
